A study of Mus musculus with 8 samples.

Results

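Promoter sequence outside CpG islands holds fewer CpGs than an island and is more often methylated, so it can also be hydroxymethylated. In the brain, 5-hydroxymethylcytosine (5hmC) is made from 5-methylcytosine by the TET enzymes, and it is best known from the bodies of genes that are used in neurons and glia. CpG islands at promoters are as a rule kept free of methylation, which leaves little for the TET enzymes to oxidise. The promoter sites outside islands were described here in adult mouse oligodendrocyte lineage cells, together with the RNA level of the gene each promoter belongs to. The sites are those of reduced representation hydroxymethylation profiling (RRHP), in which glucose is added to 5hmC, so that a CCGG carrying it is not cut by MspI and yields reads. RRHP therefore reads only CCGG, 1 strand at a time, and its read count at a site rises with 5hmC there.

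A site was included when the deposited table named a promoter for it, did not mark it as lying in a CpG island, and placed it on an autosome. This gave 68548 sites of 1497075 in all, which is 4.58% of the sites listed and 33.8% of the 202963 autosomal promoter sites. They belonged to 14360 genes, with a median of 4 sites per gene. Of these genes, 5443 had no promoter site inside an island, and they held 26874 of the sites. The remaining 41674 sites lay beside an island in the promoters of 8917 genes. Every autosomal site fell on a CCGG of the mouse genome GRCm38 (mm10), and 98.2% of the sites whose gene could be placed lay within 1000 bases of a RefSeq start of that gene. By the deposited gene columns, 16018 sites were exonic, 28252 intronic and 24278 in neither.

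All groups were sorted by fluorescence from the brains of C57BL/6 mice at postnatal day 60. Adult oligodendrocyte progenitors (aOPC) were EGFP-positive cells of the Pdgfra-H2BEGFP reporter, and adult oligodendrocytes (aOL) were EGFP-positive cells of the Plp-EGFP reporter. Each population had 2 RRHP libraries and 2 RNA-seq libraries, numbered replicates 2 and 3, with DNA and RNA taken from 1 cell pellet per the labels. Population and reporter line cannot be told apart in this design. The tissue label of the aOL RRHP libraries names the Pdgfra reporter and their titles name Plp, so the titles set the groups, and the aOL RNA titles call the cells pre-myelinating where the protocol says myelinating. The study calls its samples biological replicates, but the sources used here do not say how many mice stand behind a library. The p-values therefore measure the spread between these samples, part of which may be technical.

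The RRHP libraries held between 7113237 reads (aOPC replicate 2) and 27057859 reads (aOL replicate 3). One library stood apart: aOPC replicate 2 placed 5.74% of its reads in CpG islands, against 2.38% to 3.32% in the other libraries. On the log2 RNA scale the progenitor marker Pdgfra, the PDGF receptor that defines progenitors, read 7.54 and 5.47 in aOPC against 4.98 and 1.63 in aOL, a difference that did not pass the limma test (adjusted p = 0.250). Mog, a glycoprotein of the outer myelin surface, read 17.59 and 17.76 in aOPC against 16.89 and 17.16 in aOL (limma adjusted p = 0.190), so the aOPC libraries carried myelin RNA as well.

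Core promoters of 3 genes, each with high RNA in both populations, show what these sites look like. They were chosen after their values were seen. Each is the RefSeq promoter on GRCm38, 300 bases from 250 before to 50 after the gene's start, written 5′ to 3′ on the gene's strand, with every CCGG in capitals. Plekhb1, a pleckstrin homology protein abundant in oligodendrocytes (chr7:100662345-100662644, minus strand), Mag, the myelin-associated glycoprotein of the inner myelin membrane (chr7:30914814-30915113, minus strand), and Aplp1, an amyloid precursor-like membrane protein (chr7:30445533-30445832, minus strand), have these sequences.
Plekhb1: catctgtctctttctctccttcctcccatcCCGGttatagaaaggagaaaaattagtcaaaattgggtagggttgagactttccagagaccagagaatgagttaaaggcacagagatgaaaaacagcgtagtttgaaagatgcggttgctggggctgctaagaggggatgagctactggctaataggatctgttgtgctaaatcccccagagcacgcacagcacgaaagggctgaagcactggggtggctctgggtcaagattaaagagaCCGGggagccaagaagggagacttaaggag
Mag: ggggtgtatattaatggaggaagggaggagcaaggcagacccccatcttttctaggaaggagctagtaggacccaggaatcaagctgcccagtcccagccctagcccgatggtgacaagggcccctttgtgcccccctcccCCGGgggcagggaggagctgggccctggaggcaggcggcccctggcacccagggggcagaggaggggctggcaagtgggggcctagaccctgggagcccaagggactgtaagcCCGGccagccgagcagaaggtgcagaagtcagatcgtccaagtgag
Aplp1: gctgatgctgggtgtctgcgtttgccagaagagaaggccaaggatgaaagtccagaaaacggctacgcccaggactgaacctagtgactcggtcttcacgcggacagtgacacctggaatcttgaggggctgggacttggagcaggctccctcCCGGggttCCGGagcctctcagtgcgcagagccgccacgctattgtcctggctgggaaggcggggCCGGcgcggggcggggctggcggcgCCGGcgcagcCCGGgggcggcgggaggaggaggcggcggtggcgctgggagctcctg

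Plekhb1 and Mag each have 6 CpGs and 2 CCGGs in this window, and Aplp1 has 26 CpGs and 5 CCGGs. At the Plekhb1 CCGG that starts at base 21 after the gene's start, the plus strand held 20 and 84 reads in the aOPC libraries (replicate 2, then 3) and 77 and 90 in the aOL libraries. The Mag CCGG that starts at base 5 held 2 and 1 plus-strand reads in aOPC and 1 and 2 in aOL. No strand of an Aplp1 CCGG held more than 6 reads in any library. Plekhb1 and Mag thus had the same CpG count in this window and very different read counts. CCGG itself was present in 52.8% of the 32851 RefSeq promoter windows of this length, and in 74.9% of those whose gene has one of the sites.

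The average promoter site outside islands carried several times more reads than a promoter site inside them, and fewer than a site in the gene body. Values are mean CPM per site, where CPM is the read count scaled to the same total in every library. Outside islands, the aOPC libraries (replicate 2, then 3) had 0.651 and 0.524 CPM per site, and the aOL libraries had 0.515 and 0.513. At the 134415 island promoter sites the same libraries had 0.289, 0.102, 0.0884 and 0.133. The ratio came to 2.25 and 5.14 in aOPC, and to 5.82 and 3.85 in aOL, with a mean of 2.01 ± 0.61 on the log2 scale (SD, n = 4 libraries), above 1 in 4 of 4 libraries. The 2-sided exact sign-flip test gave p = 0.125, the smallest that 4 libraries allow. For the share of sites with a read in place of CPM, the mean log2 ratio was 0.166, and 0.409 once each library was subsampled to the smallest total. Against exon sites outside promoters and islands the ratio was 0.666 and 0.491 in aOPC against 0.473 and 0.486 in aOL, and against intron sites it was 0.802, 0.568, 0.547 and 0.579 (exact p = 0.125 for each, and 0.125 after Benjamini-Hochberg adjustment over the 4 kinds of site compared). The ratio to intergenic sites lay nearer to 1, from 0.769 to 0.968.

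**Figure D1:**
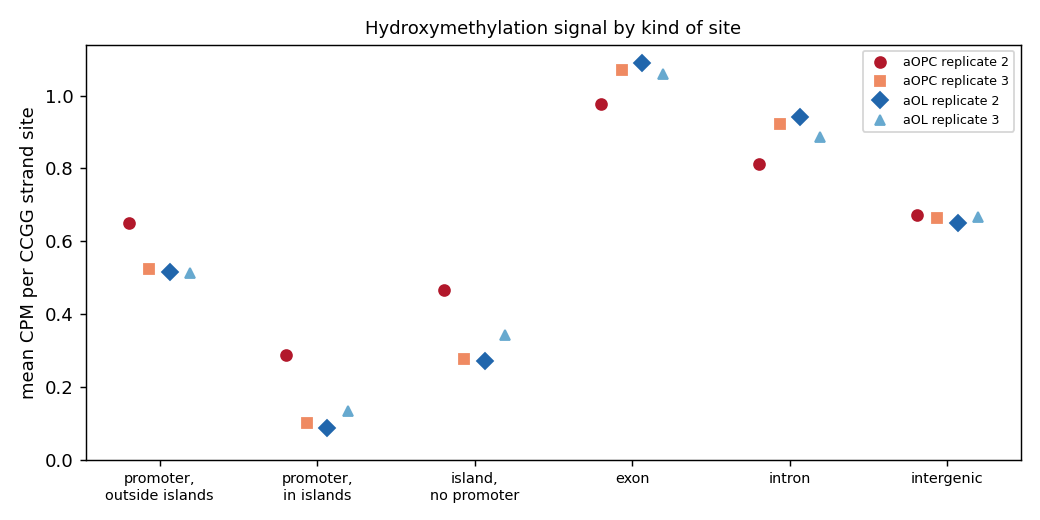
Mean CPM per site (vertical axis) for 6 kinds of autosomal site (horizontal axis), with 1 point per RRHP library. Promoter sites outside islands lie between 0.513 and 0.651, above island promoter sites in every library and below exon sites.

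These sites took 4.63% and 3.70% of the autosomal reads in aOPC, and 3.65% and 3.65% in aOL. The share was 4.17% ± 0.654 in aOPC and 3.65% ± 0.00410 in aOL (SD, n = 2 each), and the exact permutation test gave p = 0.333, the smallest possible for 2 against 2. The higher aOPC mean came from replicate 2, the library with the most island reads, while aOPC replicate 3 lay close to the aOL libraries. Without aOPC replicate 2 the log2 ratio of aOL to aOPC was -0.0216 in place of -0.191. A read was found at 78.6% of the sites in aOPC replicate 2 (95% Wilson interval 78.3 to 78.9, counting error only), at 78.8% and 77.4% in the next 2 libraries, and at 90.5% in aOL replicate 3, the deepest. Most sites were thin: 10 reads or more were found at 10.6% to 28.9% of them. Sites missing from a library's list were taken as 0, which allows up to 3 reads, or 0.111 to 0.422 CPM.

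The signal fell toward the start of the gene and was lowest just before it. From 1000 to 800 bases upstream the sites held 0.811 and 0.825 CPM each in aOPC and 0.836 and 0.782 in aOL. In the last 200 bases before the start they held 0.482 and 0.323 in aOPC and 0.307 and 0.327 in aOL. From 800 to 1000 bases downstream the level was 0.786 and 0.663 in aOPC against 0.650 and 0.637 in aOL. The dip was present in all 4 libraries and was shallowest in aOPC replicate 2. Island promoter sites showed little of it, with 0.0783 CPM just before the start and 0.0988 at the upstream end in aOL replicate 2.

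The local CpG count, taken in the 500 bases around each site, ran the other way, rising from 12.6 on average at the upstream end to 26.5 just before the start. Sites with 6 to 10 CpGs around them held 0.946 and 0.970 CPM in aOPC and 0.983 and 0.927 in aOL. Sites with 21 to 30 CpGs held 0.483 and 0.255 in aOPC and 0.235 and 0.269 in aOL. Above 50 CpGs the level was 0.182 and 0.0570 in aOPC against 0.0479 and 0.0823 in aOL, below the level of island promoter sites, although the deposited tables marked no island there. Across the 68548 sites, which share libraries and base composition, Spearman's rho between CpG count and reads was -0.110 and -0.274 in aOPC, against -0.341 and -0.282 in aOL. Within 1 CpG class the dip was smaller. At 1 to 10 CpGs, sites 1000 to 500 bases upstream held 1.02 CPM in aOPC replicate 3 and 1.06 in aOL replicate 2, against 0.796 and 0.814 in the first 250 bases after the start. At 21 to 30 CpGs the upstream sites held 0.293 and 0.271 in these 2 libraries. In the last 250 bases before the start they held 0.178 and 0.158, a larger fall in proportion.

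**Figure D2:**
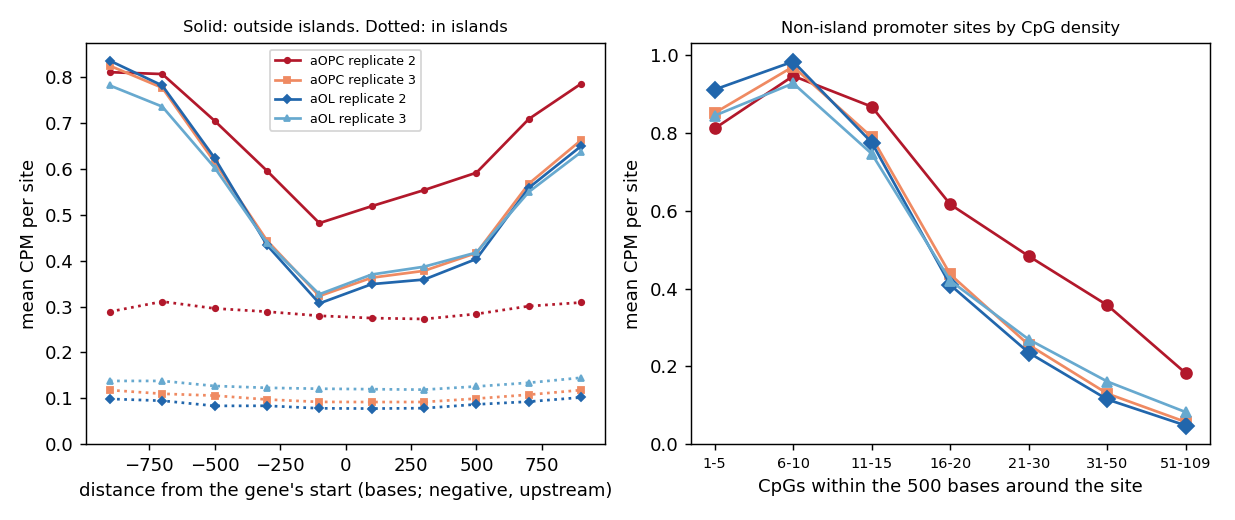
Left, mean CPM per site against distance from the gene's start in 200-base bins, for promoter sites outside islands (solid) and inside them (dotted), 1 line per RRHP library. Right, mean CPM per site outside islands by the number of CpGs in the surrounding 500 bases; the level falls from 0.927 to 0.983 at 6 to 10 CpGs to under 0.2 above 50.

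Sites of genes with no island promoter site held 0.683 and 0.605 CPM in aOPC and 0.603 and 0.599 in aOL. Sites beside an island held less, 0.631 and 0.471 in aOPC and 0.458 and 0.457 in aOL, and had more CpGs around them (22.7 on average, against 17.1). Reads on the 2 strands of 1 CCGG were only loosely related. Across 20293 CCGGs with both strands listed, rho between the strands was 0.107 and 0.217 in aOPC against 0.299 and 0.233 in aOL.

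The next question was how these levels relate to the RNA of the named gene. Of the 14360 genes, 8184 were in the RNA table and 6176 were not. Genes were divided into quintiles by the RNA of the library with the same population and replicate number. The average over a promoter's sites hardly followed RNA. In aOL replicate 2 the mean level fell from 0.460 CPM per site in the lowest quintile to 0.360 in the highest, and in aOL replicate 3 from 0.443 to 0.378. In aOPC it fell from 0.597 to 0.569 in replicate 2 and from 0.463 to 0.391 in replicate 3. Genes that were not in the RNA table had higher levels, 0.664 and 0.604 in aOPC and 0.608 and 0.603 in aOL, and fewer CpGs around their sites (14.5 on average, against 19.0 to 21.6 in the quintiles). Across the 8184 genes rho between RNA and CPM per site was -0.0258 and -0.0795 in aOPC, against -0.0988 and -0.0792 in aOL, as a description of genes that are not independent. On the log2(CPM per site + 0.5) scale, which understates changes at low levels, the level of the highest quintile minus that of the lowest was -0.0771 ± 0.0623 in aOPC and -0.126 ± 0.0317 in aOL (SD, n = 2 each). The 2 populations did not differ in this by more than their spread (difference -0.0484, exact permutation p = 0.667).

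The course along the promoter differed with RNA, a pattern that was noticed in the data and then measured. From 1000 to 500 bases upstream the highest quintile lay above the lowest in 4 of 4 libraries, and in the 500 bases before the start and everywhere after it the highest lay below. In genes of the highest RNA quintile, sites 500 to 1000 bases downstream held far fewer reads than sites equally far upstream, and in genes of the lowest quintile the drop was small or absent. For the highest quintile, upstream sites held 0.919 CPM and downstream sites 0.371 in aOPC replicate 3, and 0.814 and 0.321 in aOL replicate 2. For the lowest quintile the same libraries held 0.698 upstream and 0.605 downstream, and 0.700 and 0.60. On the log2 scale the downstream level minus the upstream level was -0.678 and -1.31 in aOPC, against -1.34 and -1.18 in aOL for the highest quintile. For the lowest quintile it was 0.112 and -0.206 in aOPC against -0.222 and -0.186 in aOL. The difference between the quintiles was -0.790 and -1.10 in aOPC against -1.12 and -0.994 in aOL, a mean of -1.0 ± 0.152 (SD, n = 4), negative in 4 of 4 libraries (exact sign-flip p = 0.125, the smallest possible). Since the pattern was found in these libraries, this p is not independent evidence of it.

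The local CpG count was close between the groups compared, and somewhat higher downstream in the highest quintile. In aOL replicate 2, downstream sites had 20.4 CpGs around them in the highest quintile and 18.0 in the lowest, and upstream sites 14.6 and 14.8. Restricted to sites with 1 to 15 CpGs, the difference between the quintiles was -0.918 ± 0.10, and with 16 to 30 CpGs it was -0.664 ± 0.172 (SD, n = 4). In genes with an island promoter site it was -0.927 ± 0.146 and in genes without one -0.888 ± 0.154. At exon sites alone it was much smaller, -0.382 ± 0.105, with as few as 71 sites in a group, and at intron sites it was -0.843 ± 0.0937. Close to the start the quintiles also differed. In the 250 bases before it, the highest quintile held 0.188 CPM in aOPC replicate 3 and 0.203 in aOL replicate 2. The lowest quintile held 0.312 and 0.286, and genes without an RNA value 0.480 and 0.461. The local CpG count there was 30.3, 27.8 and 20.4 for these groups, in that order, in aOPC replicate 3. In aOL replicate 2 it was 31.3, 26.8 and 20.4, so CpG count was highest where the level was lowest. Its part in this difference was not tested.

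**Figure D3:**
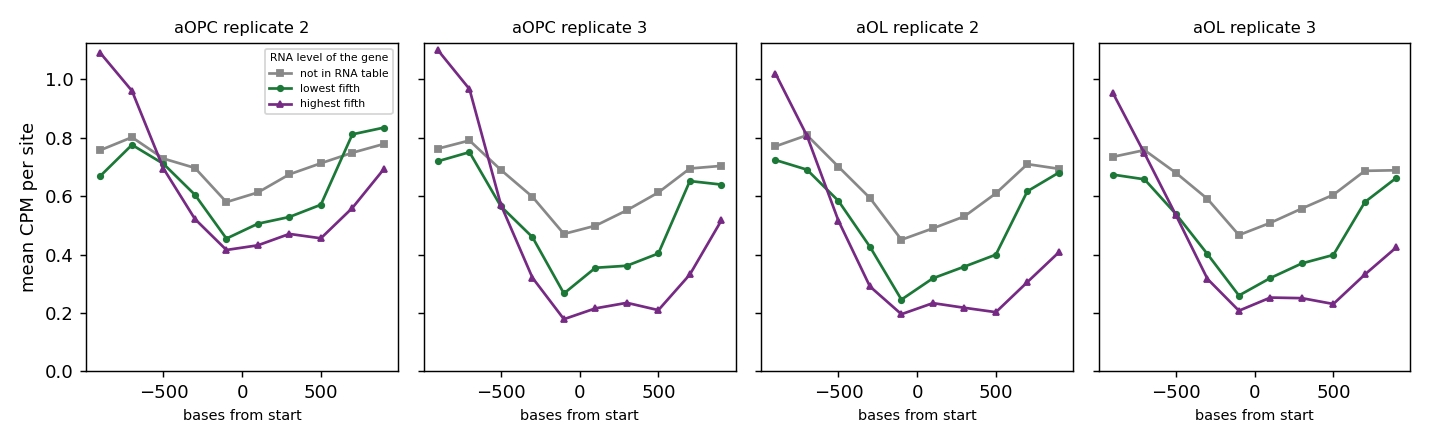
Mean CPM per site against distance from the gene's start in 200-base bins, 1 panel per RRHP library, for genes in the lowest and highest quintile of the RNA of the same-numbered library and for genes not in the RNA table. The highest quintile is the highest of the 3 groups in the farthest upstream bin and the lowest in every bin after the start, in all 4 panels.

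Single genes at the ends of the RNA range followed no simple order. Among genes with at least 3 sites, those with the most RNA were Trf, the iron carrier transferrin, Cnp, a phosphodiesterase of myelin, Scd2, a fatty acid desaturase, Aplp1, and Mbp, the myelin basic protein. Cnp held 1.32 and 0.572 CPM per site in aOPC and 0.402 and 0.414 in aOL, and Scd2 held 0.281, 0.0803, 0.126 and 0.115 in the same order. Mbp held 0.972 and 0.638 in aOPC and 0.560 and 0.638 in aOL. Those with the least RNA were Itga11, AW551984, Npas4, Il1r1 and Crhbp. Npas4, a neuronal activity-induced transcription factor, held 1.05 and 0.812 in aOPC and 0.666 and 0.721 in aOL, as much as Mbp, and Il1r1, the interleukin 1 receptor, held 0.457, 0.131, 0.157 and 0.240.

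The median over genes of all these promoters was 0.422 and 0.204 CPM per site in aOPC, against 0.188 and 0.231 in aOL. The medians of the myelin, progenitor, transcription factor, methylcytosine enzyme and cholesterol lists lay below it in 4 of 4 libraries. The solute carrier median lay at or above it, with 0.422 and 0.234 in aOPC and 0.220 and 0.253 in aOL. Of 30 myelin and oligodendrocyte genes, 21 had a site outside islands, with a median of 0.371 and 0.164 in aOPC and 0.120 and 0.185 in aOL, although their RNA medians were 16.50 to 16.74 against 10.57 for all genes. Plekhb1 was the highest of the myelin genes described here, with 22 sites and 0.863 and 1.21 CPM per site in aOPC and 1.34 and 1.11 in aOL. Gal3st1, the sulfotransferase that makes sulfatide, held 0.757 and 0.660 in aOPC and 0.613 and 0.489 in aOL. Of the 20 progenitor genes, 16 had such a site; Matn4, a matrix protein, held 1.92 and 1.97 in aOPC and 2.59 and 2.41 in aOL. For Matn4 the 2 aOL libraries lay above the 2 aOPC libraries, without passing the test (adjusted p = 1).

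Among lineage transcription factors, 14 of 20 had a site outside islands. Nkx6-2, a homeobox factor of oligodendrocytes, held 0.675 and 0.818 CPM per site in aOPC and 0.728 and 0.806 in aOL, and Sox6, which is expressed in progenitors, 0.363 and 0.365 in aOPC and 0.319 and 0.505 in aOL. Hes5, a Notch target, held 2.04, 1.14, 1.19 and 1.31, and Zfp488, a zinc finger factor of oligodendrocytes, 0.469, 0.253, 0.147 and 0.277, with the aOPC libraries first. For the enzymes that write, oxidise or read methylcytosine, 15 of 21 had a site. Tet1, a TET dioxygenase whose sites lie 7444 bases or more from the RefSeq start used here, held 0.582 and 0.551 in aOPC and 0.727 and 0.766 in aOL, while Dnmt3a, a de novo methyltransferase with 49 sites and an island, held 0.209, 0.0703, 0.0769 and 0.103. Mbd1, a methyl-CpG binding protein, held 1.52, 2.23, 2.26 and 1.63.

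Of 21 cholesterol synthesis genes, 17 had a site, with a median of 0.211 and 0.150 CPM per site in aOPC and 0.117 and 0.148 in aOL, and all of them averaged under 0.8. Srebf1, a regulator of lipid synthesis, held 0.750 and 0.662 in aOPC and 0.775 and 0.788 in aOL. Mvk, mevalonate kinase, held 0.656 and 0.195 in aOPC and 0.0733 and 0.172 in aOL. Of 333 solute carriers, 277 had a site, and the 4 with the most reads were Slc41a3, Slc25a20, Slc37a1 and Slc35b3. Slc35b3, a Golgi carrier of the sulfate donor, held 2.86 and 4.61 in aOPC and 4.77 and 4.07 in aOL. Slc41a3, a magnesium carrier, held 1.87, 2.63, 2.56 and 2.23, and Slc25a20, the mitochondrial carnitine carrier, 3.27, 2.71, 2.43 and 2.53.

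The highest levels of all, among promoters with at least 3 sites, were at Rn45s and Rn4.5s, which are repeated RNA genes whose reads cannot be assigned to 1 copy. Rn45s held 25.6 and 9.15 CPM per site in aOPC and 9.78 and 17.5 in aOL. Next came 1700086L19Rik, D19Ertd737e, Man2a2, Fam73a, Cldn24 and 6820431F20Rik. Man2a2, a Golgi mannosidase, held 6.05 and 6.48 in aOPC and 5.92 and 5.73 in aOL, with RNA values of 13.89 and 12.94 in aOPC and 14.79 and 14.74 in aOL. Cldn24, a claudin that was not in the RNA table, held 4.97, 6.29, 5.94 and 4.80. Absence from the RNA table does not show that a gene has no RNA.

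Between aOL and aOPC, single sites were tested with edgeR's quasi-likelihood test on counts, over all 443062 sites with 10 or more reads in at least 2 libraries. Of the promoter sites outside islands, 14990 (21.9%) passed this filter, 154 were called higher in aOL and 164 lower at an adjusted p under 0.05. That is 1.03% and 1.09% of those tested, close to the 1.21% and 1.08% called over all sites, so the counts are not a result about these promoters. Without aOPC replicate 3 the counts were 13 and 84, and without aOL replicate 2 they were 89 and 148. Most of the calls were all or none. Both libraries of the lower population held 3 reads or fewer at 122 of the 154 and at 127 of the 164. These shares, 79.2% and 77.4%, are close to the 76.6% and 76.2% of the calls over all tested sites. For use beside single genes, the genome was cut into 496 blocks of 5 Mb, ranked by the share of such all-or-none calls among all tested sites, these calls included. The 25 top blocks held 19.5% of the higher and 47.0% of the lower calls at these promoters, close to the 22.4% and 42.3% over all tested sites.

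The 4 largest calls each way, among sites that had 50 or more reads in each library of the higher population, are shown with the 60 bases around them, on the plus strand of GRCm38, with the CCGG in capitals. They are at chr12:35925914-35925973 (Agr3), chr8:85071136-85071195 (Dhps), chr11:58198654-58198713 (Igtp), chr10:121627064-121627123 (Xpot), chr11:28584775-28584834 (Ccdc85a), chr1:171196695-171196754 (Pcp4l1), chr1:58651774-58651833 (Gm20257) and chr1:58448552-58448611 (Nif3l1). The Agr3 and Nif3l1 sites are intronic, and the deposited columns put the others in neither exon nor intron.
Agr3: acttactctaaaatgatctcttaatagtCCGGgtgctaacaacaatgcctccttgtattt
Dhps: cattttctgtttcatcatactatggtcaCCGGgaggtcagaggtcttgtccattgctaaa
Igtp: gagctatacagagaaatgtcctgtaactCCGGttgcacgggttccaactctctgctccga
Xpot: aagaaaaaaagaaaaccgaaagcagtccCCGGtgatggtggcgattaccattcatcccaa
Ccdc85a: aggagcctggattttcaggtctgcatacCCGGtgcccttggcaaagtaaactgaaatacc
Pcp4l1: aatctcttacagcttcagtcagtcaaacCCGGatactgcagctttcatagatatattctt
Gm20257: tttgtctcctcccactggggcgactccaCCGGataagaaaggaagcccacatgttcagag
Nif3l1: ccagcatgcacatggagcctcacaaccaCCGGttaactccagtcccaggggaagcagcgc

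The first 4 were higher in aOL. These 8 sites passed the count filter only through the population where they are high, so their values are a description. The Agr3 site held 0 reads in both aOPC libraries and 134 and 217 in aOL, at least 27.5-fold more in CPM when 3 reads are allowed in each aOPC library. Its other strand held 0 reads in aOPC and 59 and 110 in aOL. The Dhps site held 0 and 0 reads in aOPC and 116 and 129 in aOL, and its other strand held 0, 0, 0 and 1. The Igtp site held 0 and 0 in aOPC and 77 and 143 in aOL, but its other strand held 5 and 33 in aOPC against 41 and 38 in aOL. The Igtp CCGG was thus read on 1 strand in aOPC and on both in aOL.

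The last 4 were lower in aOL. The Ccdc85a site held 104 and 199 reads in aOPC against 0 and 0 in aOL, at least 87.7-fold more in CPM in aOPC, and its other strand held 0 in all libraries. The Pcp4l1 site held 69 and 139 in aOPC against 0 and 0 in aOL. The Gm20257 site held 51 and 188 in aOPC and 0 and 1 in aOL, and the Nif3l1 site 68 and 258 in aOPC and 0 and 2 in aOL.

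Summing the reads of each promoter gave a test with more reads behind it. Of the 19117 promoter sums tested, island and non-island together, 9363 were sums of sites outside islands. Of these, 125 were called higher in aOL and 65 lower with edgeR's TMM scaling of the promoter table, which is 1.34% and 0.694%. Over all the sums the called shares were 0.790% higher and 0.408% lower. This split depended on the scaling. The promoter table's TMM factor of aOPC replicate 2 was 1.8, and in the site table it was 0.885. With the site table's factors 22 were higher and 74 lower, so that 22.9% of the calls were higher in place of 65.8%, and over all the sums the called shares were 0.152% and 0.492%. The median log2 difference of the promoters outside islands was 0.206 with the promoter table's factors and -0.419 with those of the site table, and differences below are read against these medians. The calls made under both scalings were 20 higher and 33 lower. Both libraries of the lower population lay under the count filter (edgeR's filterByExpr) at 71 of the 125 and at 48 of the 65. Such a promoter was tested because of its reads in the higher population, so its values are a description.

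Among those 53, both libraries of the lower population held 3 reads or fewer at 18 of the 20 and 24 of the 33. In the 25 densest blocks lay 6 and 15 of them. These counts, and those under the filter, are given without the share over all promoter sums, so they are not a result about these promoters. Leaving out aOPC replicate 3, the promoter table's scaling gave 1232 higher and 58 lower calls, and leaving out aOL replicate 2 it gave 33 and 30. Leaving out aOPC replicate 2 gave 66 and 85, and leaving out aOL replicate 3 gave 65 and 25. A general direction of change at these promoters is therefore not given.

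The promoters named are the called ones with 50 or more reads in each library of the higher population. Of the 17 higher in aOL, the 8 largest were Agr3, A530016L24Rik, Irgm2, Xpot, Dctn6, Dhps, Trim63 and Il4. Agr3, a disulfide isomerase family protein of secretory epithelia, had 0 and 0 reads in aOPC and 193 and 327 in aOL over 2 sites, at least 40.5-fold more in CPM when 3 reads are allowed in each aOPC library for the sum. Irgm2, an immunity-related GTPase induced by interferon, had 1 and 0 reads in aOPC and 103 and 127 in aOL over 3 sites, 0.0469 and 0 CPM per site against 2.16 and 1.56. Xpot, the exporter of tRNA from the nucleus, had 3 and 0 reads in aOPC and 85 and 114 in aOL. Agr3, A530016L24Rik, Irgm2 and Xpot passed the count filter through aOL alone.

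Dctn6, a dynactin subunit, was read in all 4 libraries. It had 10 and 8 reads in aOPC and 244 and 402 in aOL over 5 sites, a log2 difference of 4.73 ± 0.87 (SE, adjusted p = 1.55e-05). Dhps, the first enzyme of hypusine synthesis, had 10 and 24 reads in aOPC and 170 and 225 in aOL. In the site above lay 116 and 129 of those aOL reads. Trim63, a muscle ubiquitin ligase, had 2 and 12 reads in aOPC and 56 and 84 in aOL, and Il4, the cytokine interleukin 4, 8 and 12 in aOPC and 74 and 103 in aOL. Without aOL replicate 3 Dctn6 was not called (adjusted p = 0.0746), without aOL replicate 2 Il4 was not (adjusted p = 0.0658), and Dhps lost its call without either aOL library (adjusted p = 0.289 and 0.302). Using only sites with 3 reads in every library, Dhps had a log2 difference of 1.10 and was not called (adjusted p = 0.329). Trim63 and Il4 were not called with the site table's factors (adjusted p = 0.745 for each). The same held for Vmn2r29, a vomeronasal receptor of a large similar family, and Tmem128, a membrane protein, which complete the 5 largest among promoters with more than 3 reads in every library.

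Only 7 promoters were lower in aOL with at least 50 reads in both aOPC libraries, and these 7 were called under both scalings. Dhx34 and Ifi202b passed the count filter through aOPC alone, and Dhx34 lost the call with either aOL library left out. Of the other 5, Gm20257, Ccdc85a, Nbl1, Nif3l1 and E330013P04Rik, none was called with either aOL library left out (adjusted p = 1 for each). Dhx34, an RNA helicase of nonsense-mediated decay, had 80 and 297 reads in aOPC and 1 and 5 in aOL over 7 sites. Ifi202b, an interferon-induced DNA-binding protein, had 62 and 83 in aOPC and 0 and 3 in aOL. Ccdc85a had 119 and 219 in aOPC and 10 and 32 in aOL, and Nbl1, a secreted BMP antagonist, had 65 and 165 in aOPC against 13 and 27 in aOL, a log2 difference of -2.98 ± 0.63 (SE, adjusted p = 4.42e-04). The others were Gm20257, Nif3l1 and E330013P04Rik, with 10 to 50 reads in the aOL libraries. Nif3l1 had 73 and 280 reads in aOPC, of which the single site described above held 68 and 258. Using only sites with 3 reads in every library, Nif3l1 turned to a log2 difference of 0.73 (adjusted p = 0.691) and E330013P04Rik to -0.03 (adjusted p = 0.987). Of the promoters named each way, Dctn6, Dhps, Ifi202b, Ccdc85a, Nbl1 and E330013P04Rik lie in the 25 densest blocks of all-or-none calls. The Nif3l1 sites lie 2794 bases or more from the RefSeq start used here.

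**Figure D4:**
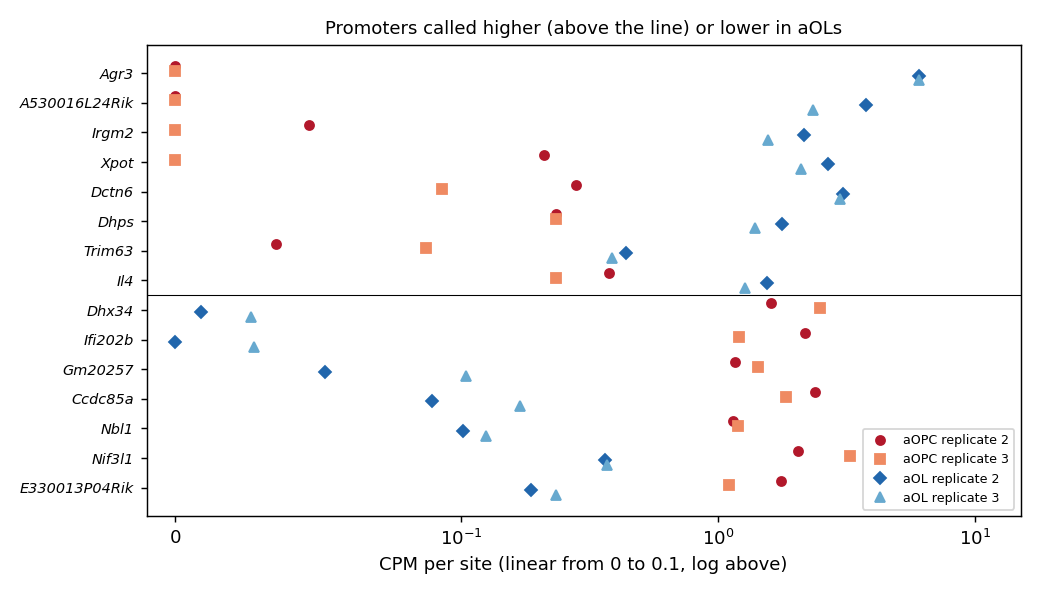
CPM per site (horizontal axis, linear up to 0.1 and logarithmic above) at the 8 promoters called higher in aOL and the 7 called lower, 1 point per RRHP library. These promoters were chosen because they were called, so the gap between the populations at each of them follows from that choice. Agr3 and A530016L24Rik lie at 0 in both aOPC libraries.

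Within the gene lists the calls are read against the 1.34% higher and 0.694% lower among all promoters tested outside islands, and against 593 higher and 178 lower of these 9363 at an unadjusted p under 0.05. At these sizes a list of a few promoters without a call is not a result about the list. None of the 13 myelin, 7 progenitor, 6 transcription factor, 11 methylcytosine enzyme or 9 cholesterol promoters tested was called. By DESeq2 none was called either, and at an unadjusted edgeR p under 0.05 there was 1 higher myelin promoter, and 2 higher and 1 lower cholesterol promoter. Their median log2 differences were -0.0338, 0.0205, 0.0234, 0.0756 and 0.308 with the promoter table's factors, where all promoters outside islands had 0.206. With the site table's factors they were -0.793, -0.739, -0.640, -0.451 and -0.229, where all promoters outside islands had -0.419. Of 185 solute carriers, 2 were called higher, no more than that share. Slc45a2, a melanosome carrier, had 4 and 10 reads in aOPC and 27 and 63 in aOL, and Slc22a21, a carnitine carrier, had 3 and 2 in aOPC against 13 and 27 in aOL. Both passed the count filter through aOL alone, lost the call with the site table's factors (adjusted p = 0.745 for each) and were not called by DESeq2.

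Markers of other cell types were examined in the same way. None of 8 astrocyte, 9 vascular and 7 neuron promoters tested was called by edgeR or DESeq2, and 1 vascular promoter was higher at an unadjusted p under 0.05. Of 5 microglia promoters, 2 were called lower in aOL, against 0.694% of all promoters tested outside islands, and both encode subunits of complement C1q. C1qb had 30 and 90 reads in aOPC and 8 and 14 in aOL over 9 sites, and lost the call with the site table's factors (adjusted p = 0.0847) and without aOL replicate 2 or 3 (adjusted p = 0.289 and 0.588). C1qc had 12 and 28 reads in aOPC against 0 and 0 in aOL. Both passed the count filter through aOPC alone, so their calls are a description. The C1qb and C1qc promoters lie in 1 block, ranked 13 of 496 for all-or-none calls. P2ry12, a purinergic receptor that marks microglia, had 4.29 and 5.20 CPM per site in aOPC and 5.02 and 4.25 in aOL. In RNA, 14 of 15 microglia genes were in the table, with a log2 summed level of 12.80 and 12.11 in aOPC and 12.33 and 11.88 in aOL, and the part of microglia in the C1q values was not tested.

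The RNA test called few genes with a site. limma on the deposited log2 values, with a log2 level of 5 or more in at least 2 libraries, a p under 0.01 and an adjusted p under 0.05, called 1 gene higher in aOL and 8 lower of 11133, which is 0.00898% and 0.0719%. Among the 8065 genes tested that have a promoter site outside islands, 1 was higher and 3 were lower. At an unadjusted p under 0.05, 951 were higher and 1002 lower, which is 24.2% against 24.0% over all genes tested. With no filter on low values none of these 4 calls held (0 higher and 0 lower). Pcdhgb8 and Egr3 reached the log2 level of 5 in 1 population only, so their calls are a description. Pcdhgb8, a clustered protocadherin, was higher in aOL, with RNA values of 3.64 and 3.77 in aOPC and 9.60 and 8.99 in aOL. Efemp1, an extracellular matrix protein, read 11.39 and 10.88 in aOPC and 5.81 and 5.71 in aOL. Thbd, the thrombin receptor thrombomodulin of endothelial cells, read 10.16 and 9.77 in aOPC and 5.60 and 5.42 in aOL, and Egr3, an early growth response factor, 5.08 and 5.18 in aOPC and 1.57 and 1.63 in aOL (limma adjusted p = 0.0469 for each of the 4). Of the 16 vascular markers 5 were in the RNA table, and their median was 8.343 and 9.341 in aOPC against 5.922 and 5.259 in aOL. The log2 summed level of these 5 was 10.71 and 11.20 in aOPC against 10.05 and 10.33 in aOL. For 15 astrocyte markers the sum was 15.19 and 14.54 in aOPC against 14.20 and 14.48 in aOL, and for the 10 neuron markers in the table it was 12.88 to 13.01 in all libraries. The vascular and astrocyte sums were thus higher in both aOPC libraries than in either aOL library, and their part in the 3 lower RNA calls was not tested. Pcdhgb8 shares its last exons with neighbouring protocadherins, so its RNA value is uncertain. The counts among genes with a site rest on which libraries enter. Without aOPC replicate 2 limma called 1369 higher and 1361 lower, and without aOPC replicate 3 it called 752 and 643. Without aOL replicate 2 it called 22 and 68, and without aOL replicate 3, 17 and 64.

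The promoters of these 4 genes were not called. Pcdhgb8 had 0.309 and 0.269 CPM per site in aOPC and 0.477 and 0.495 in aOL (edgeR adjusted p = 0.350). Thbd had 0.703 and 0.642 in aOPC and 0.649 and 0.653 in aOL, and Egr3 0.562 and 0.214 in aOPC and 0.209 and 0.234 in aOL (adjusted p = 1 for both). Efemp1, with 2 to 7 reads per library, was below the filter.

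Differences in promoter reads and in RNA did not run together. Over the 5019 genes with both, Spearman's rho between the log2 differences was -0.00720, and 49.2% of the genes had the same sign in both. Both comparisons come from the same cell pellets, per the labels. With the site table's factors rho was -0.0125 and the share 48.7%. Of the called promoters, 84 had RNA tested, and none of these genes was called in RNA by limma, while 12 were higher and 20 lower at an unadjusted p under 0.05, which is 38.1% of the 84 against 24.0% of all genes tested. Nbl1, lower in promoter reads in aOL, had RNA values of 8.93 and 9.25 in aOPC and 5.07 and 6.24 in aOL (adjusted p = 0.112). Ccdc85a, whose lower promoter reads in aOL lay mostly at 1 site, had RNA values of 5.68 and 6.05 in aOPC and 7.50 and 7.42 in aOL (limma adjusted p = 0.120). Dctn6, higher in promoter reads, had 12.33 and 11.86 in aOPC and 11.20 and 11.33 in aOL (adjusted p = 0.175).

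**Figure D5:**
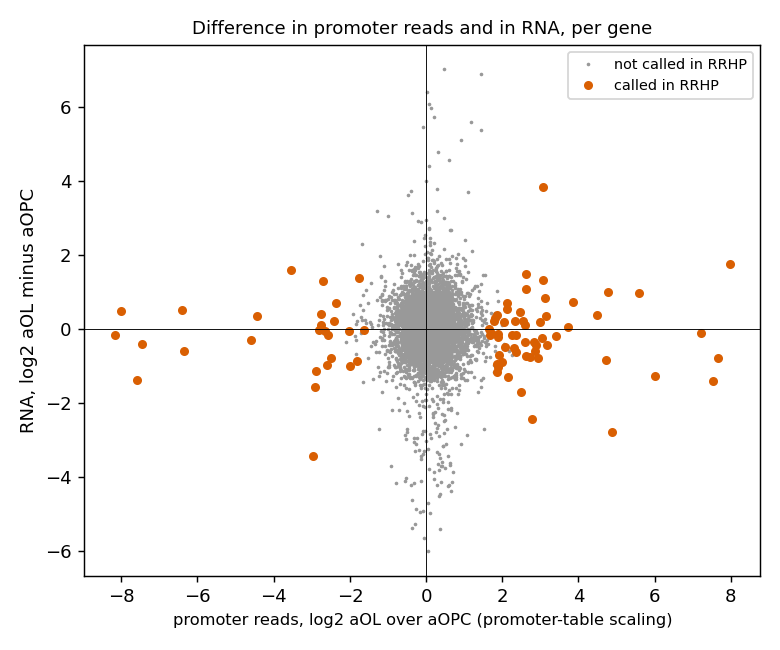
Log2 difference in RNA (aOL minus aOPC, vertical axis) against the log2 difference in promoter reads outside islands (horizontal axis, promoter-table scaling), 1 point per gene over 5019 genes, with the 84 called promoters larger. The points spread along both axes with no slope (rho -0.00720).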

How the data were processed

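RRHP and RNA-seq libraries of sorted aOPC and aOL cells were grouped by title. The deposited RRHP values are raw counts per CCGG strand, aligned by the authors to mm10, and the aligner, duplicate handling and read filter are not given in the sources used here. The deposited RNA values are log2 expression per gene, made by the authors from BWA alignments, featureCounts counts and DESeq2 (the submitters' processing notes give version 1.2.5), with nearly equal upper quantiles in the 4 libraries. Columns of the 4 count tables were joined by site, and a missing site was set to 0. Same-numbered aOPC and aOL tables list the same sites, each with a read in at least 1 of the pair, and 85.7% of the promoter sites outside islands were listed in both pairs.

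Positions were written 1-based and compared with GRCm38, which is mm10. Distance was taken to the nearest RefSeq start of the named gene. CPM used each library's total over all chromosomes. Single sites (10 reads in 2 libraries) and promoter sums (filterByExpr) were tested with edgeR 4.0.16 (glmQLFit, TMM scaling), and RNA with limma 3.58.1. DESeq2 1.42.0, RLE scaling, library totals alone, other filters, a replicate block and leaving out each library were alternatives. Scripts were tested on simulated data with 200 changed features. Promoters were named if called with 50 reads in each library of the higher group (8 largest each way), or with over 3 reads everywhere (5 each way); single sites likewise (4 each way). Also named were the 8 highest levels, the 4 genes with most reads and any call in each list, the 5 highest and lowest in RNA, and RNA calls; a few genes this rule names are not reported here. The members and lists were chosen with earlier results of these data known.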

Additional observations from a re-analysis of the deposited data

How the results depend on the processing

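With 2 libraries per group no permutation p between the groups can fall under 0.333. Counts of called sites (154 higher and 164 lower in aOL) were 4 and 6 with 10 reads in every library, 303 and 434 with no count filter, 69 and 145 with DESeq2, and 95 and 153 with both strands summed; they ran from 13 to 208 higher and from 84 to 153 lower without 1 library each, the fewest without aOPC replicate 3, and with the replicate block they were 218 and 200. Counts of called promoters (125 and 65) were 21 and 9 using only sites with 3 reads in every library, 31 and 68 with library totals alone, 22 and 74 with the site table's factors, 40 and 30 with DESeq2, 68 and 38 among genes with no island site, and 63 and 38 with the replicate block; without 1 library, where the lone library is assumed to vary like the other group, they ran from 33 to 1232 higher and from 25 to 85 lower. Replicates share only a number: the deviations of same-numbered libraries correlated at -0.222 over promoter sums, -0.0765 over sites and -0.0736 over RNA. Crossing the pairing gave 356 and 85; this, the site-table scaling and the depth and profile alternatives were chosen after seeing the data. Of the 19 named promoters, 13 kept the call with the site table's factors, 11 with the replicate block, and 9 and 8 without aOL replicates 2 and 3. Nif3l1 reversed to 0.73 (log2) using only sites with 3 reads in every library (adjusted p = 0.691), E330013P04Rik moved from -2.22 to -0.03 (adjusted p = 0.987) and Dhps from 3.18 to 1.10 (adjusted p = 0.329), while Il4, Vmn2r29 and Tmem128 kept the call. The cause of these changes was not tested.

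The log2 ratio of promoter sites outside to inside islands (2.01) was 0.166 for the share of sites with a read, and 0.409 for that share at equal totals. The highest-minus-lowest RNA quintile difference in aOL (-0.126) was -0.199 in genes with no island site, -0.158 at sites listed in both pairs, and -0.239 with a pseudocount of 0.1. The downstream-over-upstream difference (-1.0) was -0.664 at 16 to 30 CpGs, -0.382 at exon sites and -0.843 at intron sites, and ran from -1.07 to -0.963 without 1 library. RNA calls among genes with a site (1 higher, 3 lower) were 0 and 0 with no filter on low values, where limma gave 930 and 983 at an unadjusted p under 0.05, 26 and 75 with the replicate block, and from 17 to 1369 higher and 64 to 1361 lower without 1 library. Spearman's correlation between the RNA and promoter differences (-0.00720) was -0.0171 using only sites with 3 reads in every library, 0.0202 in genes with no island site, -0.0125 with the site table's factors, and from -0.00643 to 0.00153 without 1 library. The log2 ratio of the read share between populations (-0.191) stayed negative, from -0.343 to -0.0216 without 1 library.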
